A study of Equus caballus with 4 samples.

Results

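The genes described here are the cytosolic sensors of RNA, the RNA-activated kinase PKR and the proteins next to them: DDX58 (RIG-I), IFIH1 (MDA5), DHX58 (LGP2), EIF2AK2 (PKR), ZBP1, ADAR, TMEM173 (STING), TBK1, IKBKE and TANK. Their transcripts are written in lower case italics below. No measured value enters the rule that picks their probes. Probes whose gene name in the array files equals one of these 10 symbols were taken, with the newer names RIGI and STING1 counted as *ddx58* and *tmem173*. This gave 13 probes for 8 genes, out of 13331 gene symbols on the array. For *dhx58* and *adar* the gene name field holds a transcript accession in place of a symbol. Their probes, 5 for each gene, were found through the description field of the same files, and are kept apart from the counts of the 13. All 23 probes passed the filter on dim probes and were tested, those of *zbp1* and *ikbke* and 3 of *adar* through the HMB channel alone.

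RIG-I-like receptors are helicases of the cytosol that bind double-stranded RNA of viruses and also of the cell itself. RIG-I and MDA5 pass the signal to MAVS on mitochondria, where TBK1 and the related kinase IKK epsilon (the product of *ikbke*) activate the interferon regulatory factors that switch on interferon genes. Many of the sensors are themselves induced by interferon. PKR also binds double-stranded RNA, but it phosphorylates the initiation factor eIF2 and so slows translation. In skeletal muscle, interferon-induced genes such as RIG-I are known from the fibres of patients with dermatomyositis.

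Expression was measured in differentiating equine satellite cells, the stem cells of skeletal muscle, grown from horse m. semitendinosus and taken on day 3 of differentiation. The HMB-treated cells were kept for 24 h with 50 µM HMB (β-hydroxy-β-methylbutyrate, a metabolite of leucine) and received 3 mM H2O2 in the last 1 h. The control cells received the same H2O2 but no HMB, so the peroxide is common to both groups and its own effect is not part of the comparison. Each of 4 arrays held both RNAs, HMB-treated in Cy5 and control in Cy3. The dyes were never swapped and the 4 arrays share 1 slide, so treatment and dye cannot be told apart. The labels number the HMB samples as 4 biological replicates but repeat 1 replicate number for the control throughout. The spread between control cultures is missing from the errors if a single control RNA was used. The culture with the best viability was selected for the study, so the 4 arrays need not stand for 4 horses.

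An array carried 45220 spots, of which 1417 were controls, and 43603 different probes of 60 bases. No spot was saturated, 13 to 35 spots per array were marked as uneven or as outliers and left out, and 55.2% to 61.8% of spots were well above background in each channel. The values are log2 ratios of Cy5 over Cy3 after normalization, so that a positive value means more of the transcript in HMB-treated cells. A probe was tested where 1 channel was well above background on all 4 arrays. It was called where limma, fitted over all 24670 tested probes, gave an adjusted p (Benjamini-Hochberg) of at most 0.05 and the fold change (FC) was at least 1.3. Of the markers of skeletal muscle, 7 had a probe, and all 7 were well above background in both channels on every array, *des* (desmin), *myod1* and *myog* among them. Of 9 leukocyte markers with a probe, 2 were tested (*cd14* and *cd68*), while *cd3e*, *cd79a*, *itgam*, *aif1* and *cd48* were above background on no array.

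A selection of 12 probes is printed to show what was hybridized, with the coordinates that the files give on the EquCab1 build. They are examples of the sensors, a pair of the overlapping *adar* probes, and genes with small or divided results, and no *dhx58* or *tbk1* probe is printed. The ends of the *ddx58* probes meet on the minus strand of chromosome 23, at chr23:39516222-39516281 and chr23:39516162-39516221, so the pair reads on without a break. No exon is named for any probe. Where a probe of 60 bases is given a longer interval, its bases are not contiguous on the genome. The first *eif2ak2* probe covers 138 positions in this way, and the *tank* probes cover 18229 and 700. Capitals in the *adar* probes mark the 37 bases that all 5 *adar* probes share, and the other probes have no capitals. Sequences run 5′ to 3′ as the files give them.
ddx58 A_69_P027287: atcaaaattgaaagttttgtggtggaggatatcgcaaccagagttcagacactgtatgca
ddx58 A_69_P027286: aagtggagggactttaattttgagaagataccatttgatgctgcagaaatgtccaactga
ifih1 A_69_P041987: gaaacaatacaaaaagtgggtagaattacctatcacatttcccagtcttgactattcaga
eif2ak2 A_69_P059922: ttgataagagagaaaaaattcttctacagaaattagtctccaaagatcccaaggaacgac
eif2ak2 A_69_P059921: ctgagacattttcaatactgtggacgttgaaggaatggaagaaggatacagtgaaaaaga
zbp1 A_69_P025961: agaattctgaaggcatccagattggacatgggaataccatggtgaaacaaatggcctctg
adar A_69_P075445: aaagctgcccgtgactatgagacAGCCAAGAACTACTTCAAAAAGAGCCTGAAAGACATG
adar A_69_P075441: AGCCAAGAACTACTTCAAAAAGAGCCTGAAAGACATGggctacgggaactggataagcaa
tmem173 A_69_P062381: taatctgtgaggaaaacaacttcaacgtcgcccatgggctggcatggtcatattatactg
ikbke A_69_P073296: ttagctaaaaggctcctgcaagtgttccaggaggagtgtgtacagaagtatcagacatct
tank A_69_P041952: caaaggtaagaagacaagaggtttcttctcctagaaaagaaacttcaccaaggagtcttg
tank A_69_P041951: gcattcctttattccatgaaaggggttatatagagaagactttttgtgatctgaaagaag

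HMB-treated cells had more RNA of nearly all of these genes. Of the 13 probes found by gene name, 11 were called higher, 0 were called lower and 2 were not called, beside 28.6% of all tested probes called, 12.1% higher and 16.4% lower. All 10 probes of *dhx58* and *adar* were called higher as well. Taking the brightest tested probe of each gene, 7 of the 8 genes found by name were called higher, and *tmem173* was not. With both channels required to be above background on every array, 5 of these genes were tested and all 5 were called higher. This filter left out *zbp1*, *ikbke* and *tmem173*. The median log2 ratio of these 8 genes was 1.98, and that of all tested probes was −0.07. With the deposited ratios the sizes fell into steps that the plot of log2 ratios by array shows. There *ifih1* was on top, then *dhx58* and *ddx58* close together, then *eif2ak2*, and the kinases and adaptors below. The ratio of *zbp1* rests on a control signal not well above background and has no place in this order.

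**Figure D1:**
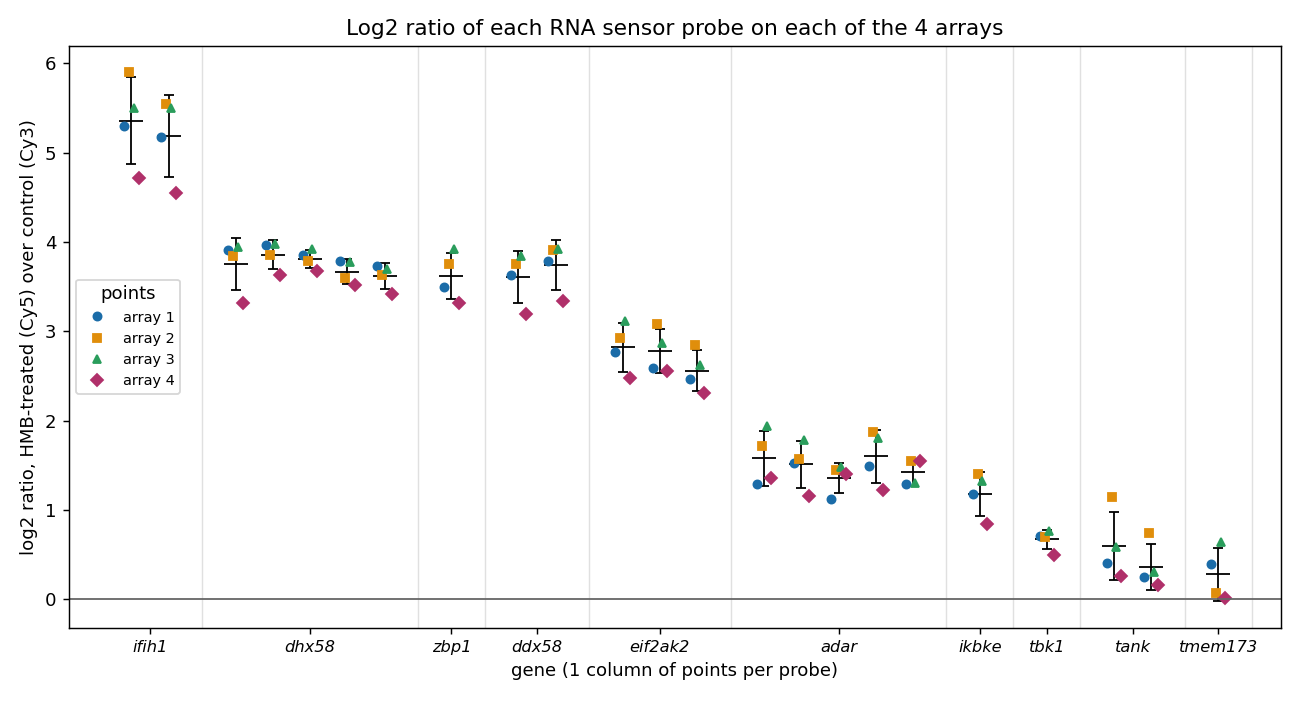
Log2 ratio of HMB-treated over control (vertical axis) for each of the 23 probes, grouped by gene, with 1 coloured point per array and the mean and SD of the 4 arrays in black. The *ifih1* probes lie between 4.55 and 5.90, above the points of the other genes, whereas the *tmem173* probe reaches down to 0.01. The *zbp1* points rest on a control signal not well above background.

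Of the 3 helicases, *ifih1* had the largest deposited ratio. It encodes MDA5, the receptor of long double-stranded RNA. On its brighter probe (chr18:31121304-31121363, minus strand) the log2 ratios on replicates 1 to 4 were 5.30, 5.90, 5.50 and 4.72. Replicate 4 was the lowest and replicate 2 the highest, and all 4 were far from 0. The mean was 5.36 ± 0.49 (SD, n = 4), for an FC of 41.0 and, by limma, an adjusted p of 6.04e-06. With normexp, limma's model-based background correction, and loess the mean log2 ratio was 3.98, and 3.54 on the other probe, and both were called. By mean ratio the probe ranked 34 among the 24670 tested probes. The control signal of this probe was 76.2 to 122 intensity units and the HMB signal 2730 to 5540, both above background on every array. The other probe, printed above and next to it (chr18:31121369-31121428), gave 5.18, 5.55, 5.50 and 4.55. Both probes thus placed the arrays in the same order from replicate 2 down to replicate 4, and their means of 5.36 and 5.19 differed by less than the SD of either.

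*ddx58* encodes RIG-I, which binds short double-stranded RNA with a triphosphate end. Its brighter probe gave log2 ratios of 3.63, 3.75, 3.84 and 3.20. The other gave 3.79, 3.91, 3.92 and 3.34. Replicate 4 was the lowest on both, and no value of either probe came near 0. The means were 3.61 ± 0.29 and 3.74 ± 0.28 (SD, n = 4), with FC of 12.2 and 13.4 and limma adjusted p of 4.96e-06 and 3.69e-06. On the brighter probe the control signal was 616 to 788 and the HMB signal 6730 to 11300, so the transcript was well measured in both groups.

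*dhx58* encodes LGP2, a helicase without the signalling domains of the other two that modulates their action. Its 5 probes lie within 64 bases of chromosome 11 (chr11:19586838-19586901, plus strand) and share 56 of their 60 bases, so they are repeats of 1 measurement and not separate evidence. The brightest gave log2 ratios of 3.73, 3.63, 3.70 and 3.42, with a mean of 3.62 ± 0.14 (SD, n = 4), an FC of 12.3 and a limma adjusted p of 1.47e-06. The means of the 5 ran from 3.62 to 3.86. Its control signal was 653 to 994 and its HMB signal 7100 to 12900. The ratios of *dhx58* and *ddx58* overlapped, and *dhx58* was the higher of the pair on 2 of 4 arrays.

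*zbp1* encodes a sensor of Z-form nucleic acid that can lead to cell death through RIPK3. Its only probe (chr22:44196333-44196392, minus strand) gave log2 ratios of 3.50, 3.75, 3.92 and 3.32. All 4 were far from 0, with replicate 4 the lowest. The control signal, 21.2 to 41.0, was well above background on 0 of 4 arrays, and the HMB signal, 212 to 552, on all 4. With the deposited signals the ratio was 12.3-fold, and its limma adjusted p of 3.69e-06 rests on a control signal not well above background. This value compares the mean log2 Cy5 signal of 8.48 with a Cy3 mean of 4.86. In that mean each array takes the higher of the probe's own signal and the dimmest signal well above background. The probe's own Cy3 mean was also 4.86, so the value equals the measured ratio and is not a minimum. Without dye swaps it is also open to dye bias. The size depended on the treatment of background: the mean log2 ratio was 1.34 with normexp and loess and 1.89 with loess and no background correction, and the probe was called in both. Since it passed the filter through the HMB channel alone, it was not tested where both channels had to be above background.

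**Figure D2:**
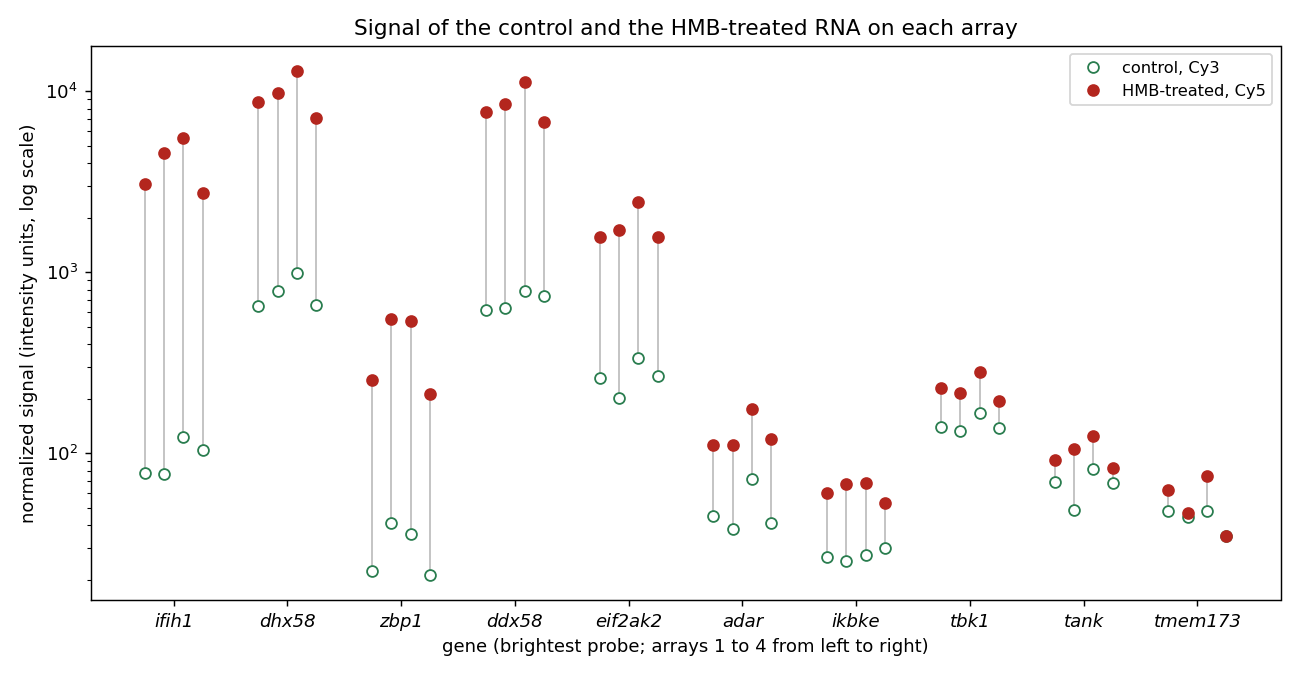
Normalized signal in intensity units (vertical axis, log scale) of the brightest probe of each gene, with open points for control RNA (Cy3), filled points for HMB-treated RNA (Cy5) and 1 pair per array from replicate 1 on the left to replicate 4. The control points of *ddx58* lie between 616 and 788 and its HMB points between 6730 and 11300. The points of *tmem173* nearly meet on replicates 2 and 4 and stand apart on replicates 1 (47.6 and 62.6) and 3 (47.7 and 74.5). Levels of different genes are not comparable, since each probe binds with its own strength.

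*eif2ak2* encodes PKR. Its brightest probe gave log2 ratios of 2.59, 3.08, 2.87 and 2.56, a mean of 2.78 ± 0.25 (SD, n = 4), an FC of 6.85 and a limma adjusted p of 9.93e-06. Replicates 1 and 4 were alike and replicate 2 was the highest. The other probes, at chr15:57176965-57177024 and chr15:57176244-57176381, had means of 2.82 ± 0.27 and 2.56 ± 0.23, and both were called. The 3 probes cover different stretches of the transcript, and with the deposited ratios their means lay between 2.56 and 2.82. This closeness depended on the background correction. With normexp and loess the mean log2 ratio was 2.24 on the brightest probe and at most 1.59 on the others. Without background correction the brightest stood at 2.53 and the others at 2.04 and 1.87. All 3 probes were called in both settings. The control signal of the brightest was 202 to 334 and its HMB signal 1570 to 2450. All 4 ratios of *eif2ak2* lay below all 4 of *ddx58*, by 0.64 to 1.04 on the same array.

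*adar* encodes the enzyme that turns adenosine into inosine in double-stranded RNA, which keeps the cell's own RNA from being sensed. Its 5 probes overlap within 83 bases on unplaced sequence (chrUn:83272854-83272936, minus strand) and count as 1 measurement. The brightest gave 1.29, 1.55, 1.3 and 1.55, a mean of 1.42 ± 0.15 (SD, n = 4), an FC of 2.68 and a limma adjusted p of 4.51e-05. Replicate 4 was among the highest arrays on this probe, but it was the lowest on 2 of the other 4, at 1.16 and 1.22. The means of the 5 probes ran from 1.36 to 1.60 and all were called. The probe is dim, with a control signal of 38.1 to 71.7 that was above background on 3 of 4 arrays and an HMB signal of 111 to 176. With normexp and loess its mean log2 ratio was 0.52, and it was still called.

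The kinases and adaptors downstream of the sensors had smaller ratios. *ikbke* (chr5:2766183-2766242, plus strand), the inducible kinase of the pair, gave 1.18, 1.40, 1.32 and 0.84. All values were positive, and replicate 4 was the lowest. The mean was 1.18 ± 0.25 (SD, n = 4), for an FC of 2.27 and, by limma, an adjusted p of 3.19e-04. The control signal of 25.5 to 29.8 was above background on 2 of 4 arrays, so the size is less certain than that of the sensors, and with normexp and loess the mean was 0.32 and the call was lost. *tbk1* (chr6:77301987-77302046, plus strand), the kinase present in most cells, gave 0.71, 0.70, 0.76 and 0.50. These were small but even, with a mean of 0.67 ± 0.11 (SD, n = 4), an FC of 1.59 and a limma adjusted p of 6.45e-04. On each array *ikbke* exceeded *tbk1*, by 0.33 to 0.70, with the deposited ratios. The order turned with normexp and loess (0.32 for *ikbke* and 0.39 for *tbk1*) and without background correction (0.42 and 0.52), so it is not settled.

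*tank* encodes a scaffold that binds both kinases, and its probes fell on different sides of the threshold. The brighter one (chr18:30233072-30233771, plus strand) gave 0.41, 1.14, 0.59 and 0.26, a mean of 0.60 ± 0.38 (SD, n = 4), an FC of 1.52 and a limma adjusted p of 0.0156, and was called. The neighbouring one (chr18:30214843-30233071) gave 0.25, 0.74, 0.31 and 0.16, a mean of 0.36 ± 0.26, an FC of 1.29 and a limma adjusted p of 0.0303, and was not called, since its FC was under 1.3. Replicate 2 stood highest on both probes. Without replicate 3 the brighter probe had a limma adjusted p of 0.0604 and lost its call, and without replicate 4 the neighbouring probe had a mean of 0.43 and was called. The *tank* and *ifih1* probes lie on the same chromosome, 887532 bases apart, with *ifih1* at the top of the order and *tank* among the lowest genes.

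*tmem173* encodes STING, the adaptor that answers cyclic dinucleotides made when DNA is found in the cytosol. Of the 10 genes, it alone had no called probe (chr14:36467216-36467275, plus strand). Its log2 ratios were 0.40, 0.07, 0.64 and 0.01. Replicates 1 and 3 were above the other two, which were close to 0. The mean was 0.28 ± 0.30 (SD, n = 4) with a limma adjusted p of 0.0953 and a 95% confidence interval of −0.01 to 0.56. The interval includes 0 and also the threshold FC, so a small rise is not excluded. The control signal was 34.9 to 47.7 and above background on all arrays, and the HMB signal was 35.0 to 74.5 and above background on 3 of 4.

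In the order of the brightest probes, the ranges over the 4 arrays separated *ifih1* (4.72 to 5.90) from *dhx58* (3.42 to 3.73) and *ddx58* (3.20 to 3.84), *ddx58* from *eif2ak2*, and *eif2ak2* from *adar*. They also separated *ikbke* from *tbk1*, but not under every background correction. With normexp and loess the brightest probes of *ifih1*, *dhx58* and *ddx58* stood at 3.98, 3.39 and 3.38. The other *ifih1* probe stood at 3.54 there, and the highest *dhx58* probe at 3.55. The lead of *ifih1* thus depended on the probe and on the background correction. *zbp1* is left out of this order, since its control signal was not well above background. Between *dhx58* and *ddx58*, between *adar* and *ikbke*, and among *tbk1*, *tank* and *tmem173*, the ranges overlapped, so their order is not settled. With 4 arrays an exact permutation test of a pair of genes cannot go below p = 0.125, and none was run. Replicate 4 gave the lowest ratio on 13 of the 13 probes found by name and on 20 of all 23. The 13 probes stand for 8 genes, and probes of the same gene are not independent counts, so the shares that follow are no test. Among all tested probes 25.5% were lowest on replicate 4, and among the 2996 probes called higher 43.3% were. The median over the 10 genes was 1.94, 2.31, 2.10 and 2.05 on replicates 1 to 4, and the median of all tested probes was −0.06 to −0.08, so the arrays were centred alike.

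Of 58 further genes of these pathways, listed by their known roles, 47 had a probe and 42 were tested. Of these, 12 were called higher, 2 lower and 28 neither, with a median log2 ratio of 0.02. With both channels required to be above background on every array, 38 were tested, 9 were called higher and 2 lower. Over all tested probes 12.1% were called higher and 16.4% lower, and these shares also stand beside the counts of each list and of the markers below.

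In the list of signalling from RIG-I-like receptors, 8 of 18 tested genes were called higher and 0 lower, with a median of 0.32. *mavs*, the mitochondrial adaptor through which RIG-I and MDA5 signal, gave 0.01, −0.09, 0.04 and −0.45, a mean of −0.12 ± 0.22 (SD, n = 4) with a limma adjusted p of 0.331 and a 95% confidence interval of −0.35 to 0.11. It was not called, and replicate 4 was the array farthest from 0. *irf7*, a transcription factor activated by TBK1 and IKK epsilon, gave 3.44, 3.58, 3.64 and 3.12, a mean of 3.45 ± 0.23 with a limma adjusted p of 3.27e-06. Its ratio was close to that of *ddx58*, again with replicate 4 the lowest. *ifnb1*, which encodes interferon beta, gave 2.14, 3.88, 4.70 and 2.95. Its control signal was above background on 1 of 4 arrays, so it was tested through the HMB channel alone and its size is uncertain. The mean was 3.42 ± 1.11 and stood at 0.63 in the lowest alternative. *rnf125*, a ubiquitin ligase that marks RIG-I for degradation, and *ddx3x*, a helicase that assists MAVS signalling, were called at 0.91 ± 0.31 and 0.84 ± 0.21. The control signal of *rnf125* was above background on 3 of 4 arrays. Its call was lost with normexp, without background correction and with scaling to spike-in RNA in place of lowess. That of *ddx3x* was lost with the spike-in scaling. *irf3*, the other factor activated by these kinases, was not analysed here.

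**Figure D3:**
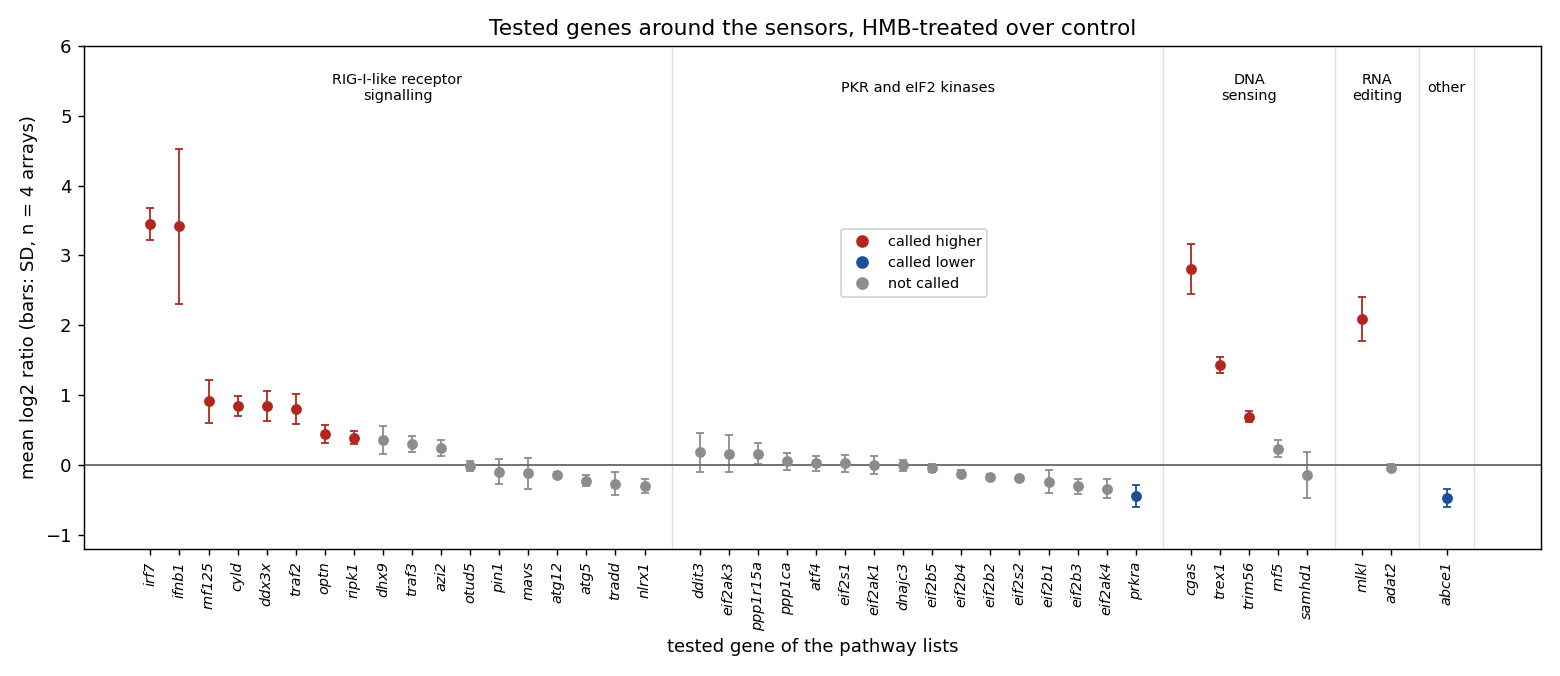
Mean log2 ratio of HMB-treated over control (vertical axis, bars show the SD of 4 arrays) for the 42 tested genes of the pathway lists, in red where called higher, blue where called lower and grey where not called. Most of the genes around PKR lie near 0, while *irf7* at 3.45 and *cgas* at 2.80 stand with the sensors.

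Around PKR, 0 of 16 tested genes were called higher and 1 was called lower, with a median of −0.03 and a range of −0.45 to 0.18. The gene called lower was *prkra*, which encodes PACT, a protein activator of PKR. It gave −0.60, −0.59, −0.36 and −0.27, a mean of −0.45 ± 0.16 (SD, n = 4) with a limma adjusted p of 0.00522, opposite in sign to *eif2ak2* on all 4 arrays. Its call was lost with limma's treat (a test for an FC above 1.3), with normexp, without background correction and after GC correction. *eif2s1*, the subunit of eIF2 that PKR phosphorylates, gave 0.08, 0.16, −0.12 and −0.04, with a mean of 0.02 ± 0.12 and a 95% confidence interval of −0.15 to 0.19. None of the other eIF2 kinases (*eif2ak1*, *eif2ak3* and *eif2ak4*) was called, at 0.00, 0.16 and −0.34. *eif2ak4* had a limma adjusted p of 0.0102 and a 95% confidence interval of −0.52 to −0.17. It was not called because its FC of 1.27 was under 1.3. The stress factors *atf4* and *ddit3*, which are translated or induced when eIF2 is phosphorylated, stood at 0.02 and 0.18 and were not called.

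In the list of DNA sensing through STING, 3 of 5 tested genes were called higher and 0 lower. *cgas*, the DNA sensor that makes the messenger for STING, gave 2.90, 3.08, 2.96 and 2.28, a mean of 2.80 ± 0.36 (SD, n = 4) with a limma adjusted p of 3.10e-05. Its ratio was about as high as that of *eif2ak2*. *trex1*, a nuclease that clears cytosolic DNA, had a mean of 1.43 ± 0.12, and *trim56*, a ubiquitin ligase of this pathway, one of 0.69 ± 0.08, whose call was lost with the spike-in scaling. Of the list of RNA editing and Z-form nucleic acid, 2 genes were tested. *mlkl*, the executor of necroptosis, was called higher at 2.09 ± 0.32, with its control signal above background on 3 of 4 arrays, and the tRNA deaminase gene *adat2* was not called at −0.04. *ripk3*, the kinase between ZBP1 and MLKL, was not analysed here. *abce1*, which encodes a protein of ribosome recycling, was called lower at −0.47 ± 0.13, a call lost with treat, with normexp and without background correction.

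Markers of cell types moved in the same comparison. Of the 7 tested muscle markers 5 were called lower, with a median log2 ratio of −1.10. The regulators *myod1* at 0.32 and *myog* at 0.03 were not called. The summed signal of the 7 was 166000 to 187000 in Cy3 and 63200 to 101000 in Cy5. Most of it came from *myh3* (80400 to 88900 in Cy3) and *acta1* (61000 to 69600 in Cy3). Of 5 tested fibroblast markers 4 were called higher, *pdgfra* and *dcn* among them, with a median of 0.76. The sums of the 5 were 194000 to 223000 and 223000 to 340000. Most of this was *col3a1* (130000 to 159000 and 132000 to 207000), not called at 0.06 on its brightest probe, though 3 of its 7 probes were called higher. Under the scaling to spike-in RNA *lum* turned slightly negative and *thy1* lost its call. The call of *lum* was also lost with treat and with normexp. Of the leukocyte markers, *cd68* was called higher at 0.88 (0.21 and not called with the spike-in scaling), *cd14* was not called at 0.20, and the sums were 3720 to 4470 in Cy3 and 4190 to 6230 in Cy5. None of 6 endothelial and 3 adipocyte markers with a probe was tested, and their summed signals were at most 175 and 39.0. The part of these shifts in the ratios of the sensors was not tested. In RNA from a whole culture, fewer cells of a type and less RNA per cell cannot be told apart.

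The lowest and highest members responded differently to the processing. In each of the 17 or 18 alternative settings that held the probe, every probe of *ifih1*, *ddx58*, *dhx58*, *eif2ak2*, *zbp1* and *adar* was called higher. The scaling to spike-in RNA, which leaves out lowess, moved the median of all tested probes from −0.07 to −0.66. Under it *ifih1* stood at 4.77 and *tbk1* at 0.05, which was not called, while the brighter *tank* probe turned to −0.13, its neighbour to −0.41 and *tmem173* to −0.52. Beside median centering, which also leaves out lowess, this scaling shifts all ratios of an array by the same amount. With median centering the brighter *tank* probe stood at 0.53, its neighbour at 0.25 and *tmem173* at 0.14. Beside the deposited ratios the shift differs between probes, since lowess is left out as well.

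**Figure D4:**
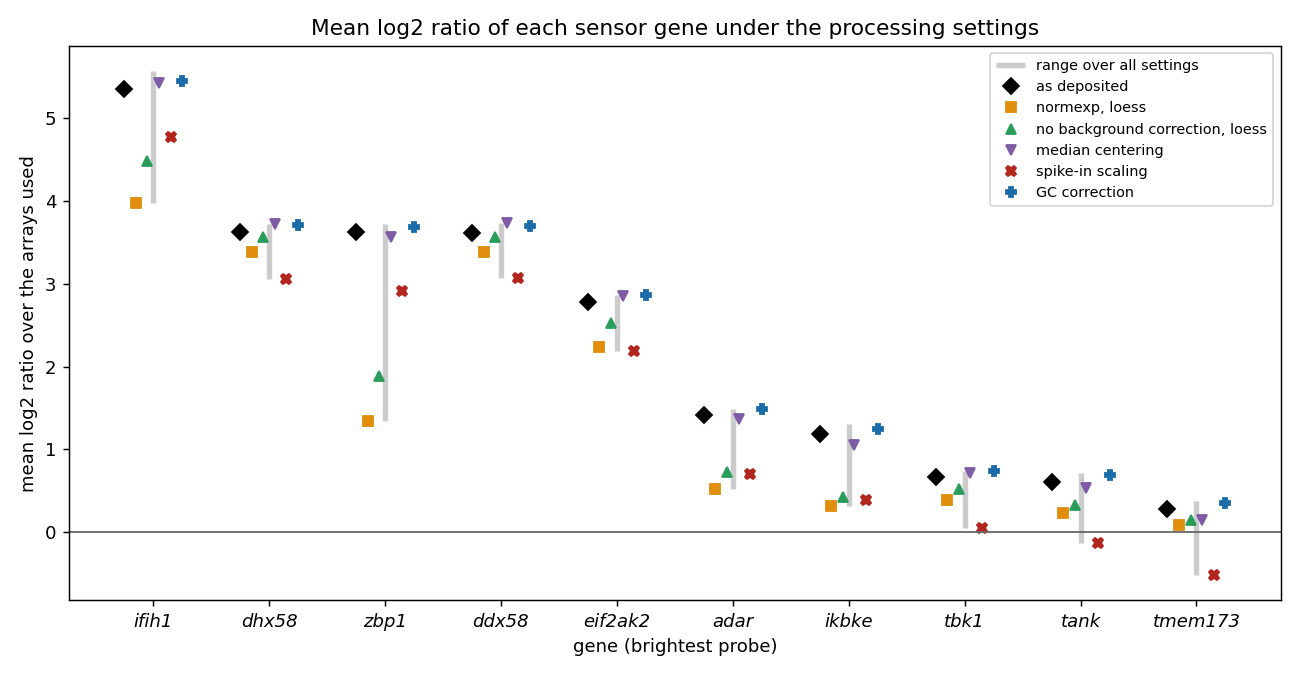
Mean log2 ratio of the brightest probe of each gene (vertical axis) with the deposited ratios and under 5 other ways of correcting background or scaling, each with its own symbol, and a grey bar for the range over all settings. The *ifih1* values stay between 3.98 and 5.57, and only *tank* and *tmem173* cross 0.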

How the data were processed

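Each array held labeled RNA of HMB-treated (Cy5) and control (Cy3) equine satellite cells. In the deposited scanner files the authors' Feature Extraction software (version 10.10.1.1 per the file headers) gives the intensity of each spot and channel, with the background subtracted and normalization by linear scaling and lowess in each array. The deposited log10 ratios are Cy5 over Cy3 of these signals. They were changed to log2 here, and no further normalization was added to the values the authors deposited. Probe annotation is that of the files (EquCab1). Feature Extraction replaces signals at background by a surrogate, which can change ratios of dim probes. The deposited ratios of the dim *zbp1*, *adar* and *ikbke* probes were larger than those with normexp or without background correction. So were those of *ifih1* and *eif2ak2*, whose control signals were well above background on all 4 arrays. The part of the surrogates in these differences was not tested.

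Control and marked spots were left out, and spots of 1 probe were averaged. Tests were run in R 4.3.3 with limma 3.58.1 (intercept model, empirical Bayes, Benjamini-Hochberg over all tested probes), after a trial on simulated data. A probe needed a ratio on at least 3 arrays. Where a gene had more than 1 probe, the tested probe of highest mean intensity stands for it in counts of genes. Figures were drawn with matplotlib 3.10.9. The 4 arrays are replicates of 1 group of ratios, and their number limits the precision. The limma p-values weigh the mean ratio against the spread between these arrays, moderated over all tested probes. The labels do not tie the replicates to separate animals, so it is not known whether this spread holds any between animals.

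The genes, pathway lists, markers and alternatives were chosen with earlier results of these data known. All members are named. Of the pathway lists, genes called with 1 direction on all 4 arrays are named, at most 4 per direction and list by size, together with *mavs*, *irf3*, *irf7*, *prkra*, *eif2s1*, *cgas* and *ripk3*. Other genes of these lists are named to describe their list and were picked after their values were seen. A gene of the lists is not reported here. Of 97 listed genes, 77 matched a probe, older symbols through a RefSeq table.

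The alternatives were limma's treat, the methods' t-test, moderation with trend and robust, normexp (offset of 50) or no background correction with loess, median centering, scaling to spike-in RNA, scale normalization between arrays, GC correction, the authors' table, other filters on dim probes, marked spots kept, the mean over the probes of a gene, and leaving out each replicate.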

Additional observations from a re-analysis of the deposited data

Results flagged for a closer look

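Among 35 probes of the genes named, 1 had an array that stood apart from the other 3. For *abce1*, replicate 3 gave a log2 ratio of −0.67, while the other arrays gave −0.40, −0.41 and −0.40. Chance alone marks about 1 in 20 groups of 4 in this way.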

How the results depend on the processing

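Direction and call were unchanged for every probe of *ifih1*, *ddx58*, *dhx58*, *eif2ak2*, *zbp1* and *adar* in all alternatives that held them. Sizes depended on background: with normexp and loess the mean log2 ratio of *ifih1* was 3.98. The brighter *tank* probe lost its call under both forms of the methods' t-test, treat, normexp, no background correction, no filter on dim probes, spike-in scaling, and without replicate 3. Its neighbour was called higher after GC correction (0.46) and without replicate 4 (0.43), and lower with spike-in scaling. Only the scaling to spike-in RNA turned signs, with −0.13 for the brighter *tank* probe, −0.41 for its neighbour and −0.52 for *tmem173*. It called 1 member gene lower, *tmem173*, and kept 5 of 7 called higher. Member genes called higher numbered 5 with normexp and 6 to 7 without 1 replicate. They numbered 5 of 5 tested when both channels had to be above background. That filter removes *zbp1*, *ikbke* and the uncalled *tmem173* from the test.

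All tested probes called numbered 2822 with treat, 3538 with normexp, 4439 without background correction and 20095 with spike-in scaling, beside 7046. Of the called probes, the share higher with HMB was 42.5% as deposited, 54.6% with treat, 55.0% with normexp, 60.1% without background correction, 55.8% after GC correction and 5.06% with spike-in scaling. Pathway genes called lower numbered 0 with treat, 0 with normexp, 0 without background correction, 1 after GC correction and 25 with spike-in scaling, which called 5 higher. Without 1 replicate, probes called numbered 6637 to 7151, pathway genes called higher 11 to 13 and lower 2 to 3. The *ripk1* and *optn* ratios turned negative with spike-in scaling. The cause was not tested in any of these. No paired analysis was possible because the ratio of an array is already the paired difference between its RNAs, which every test used, and no further block was left to add. With 4 arrays and signals near background, small ratios such as those of *tmem173* and *tank* are at the limit of what can be measured.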
